A study of Malus domestica with 18 samples.

Results

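The change of apple shoots in culture without cytokinin was measured by comparing control explants after 4 weeks with control explants after 48 hours. The members are the libraries labelled as control at either time, 6 of the 18 in the series, with 3 libraries in each group. The explants were axillary shoots of the apple cultivar Húsvéti rozmaring (Malus domestica) kept in vitro, and they had been cut to a length of 20 mm. The control medium held no cytokinin but, like every medium of the study, 0.49 µM indole butyric acid (an auxin) and 0.58 µM gibberellic acid, and the shoots had spent the preceding subculture on medium without cytokinin. No cytokinin was thus added to the medium of either group, and the groups differed in the time on fresh medium after cutting. The other libraries came from media with 4.5 µM thidiazuron (TDZ), a phenylurea with cytokinin activity, or 4.5 µM 6-benzylaminopurine riboside (BAR), at the same times. Replicates are called biological in the labels, which name no vessels, so the p-values measure only the spread between these samples. The library of control, 48 hour, replicate 3 has the name of replicate 1 with the letter b added, and no label explains that letter.

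Cytokinins are adenine-derived hormones, with synthetic phenylurea analogues, that keep meristem cells dividing, release axillary buds from rest and delay the breakdown of chlorophyll in leaves. Plants perceive them through membrane histidine kinases, pass the signal through phosphotransfer proteins to nuclear response regulators, and among the first genes to respond are the type-A response regulators, which damp the signal. A cut shoot that grows in vitro makes new leaves and stem at its tip, while its older leaves end in senescence, an ordered programme that recovers nitrogen, sugars and metals.

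The 6 libraries held 14646040 to 21279097 counted fragments, within the 12546489 to 21279097 of the whole series, and 23656 of 42841 genes had enough counts to be tested. Control, 4 week, replicate 1 stood apart from its group. Its Spearman correlation across genes was 0.916 and 0.921 with replicates 2 and 3, which correlated at 0.988 with each other, and 0.808 to 0.832 with the 48 hour libraries, against 0.735 to 0.760 for replicates 2 and 3. The 48 hour libraries correlated at 0.964 to 0.973 with each other. The time of culture lay along the first principal component (79.0% of the variance) and replicate 1 along the second (11.6%). List counts below are therefore given for all 6 libraries and again without this library, which is the one meant by replicate 1 unless 48 hours are named. Where leaving out another library moved the larger count of a list, of 10 genes or more, by over 1.5 times, its range over the fits without 1 of the other 5 libraries is given too. The label of axillary shoot was checked against marker genes. Genes of nuclear light harvesting and photosystems summed to 40598, 42701 and 34204 CPM (counts scaled to a common library total) at 48 hours and to 28097, 10551 and 10836 CPM at 4 weeks. Of 44 genes named after root markers 6 had enough counts to be tested, and 27 had no count at 48 hours and 31 none at 4 weeks. Of 29 flower and pollen markers 6 could be tested, with 20 and 18 at no count. The root list summed to 236, 388 and 306 CPM at 48 hours and 108, 62.9 and 58.2 CPM at 4 weeks, and 5 of its 6 tested genes fell, among them SCARECROW, which is also expressed in shoots of Arabidopsis. Of the 6 tested flower genes 3 fell. The part of these markers in the results below was not tested.

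Shoots at 4 weeks had lower levels of many transcripts of dividing and expanding tissue. Levels were higher for many transcripts of chlorophyll breakdown, senescence and autophagy taken as 1 list, of NAC and WRKY factors and of heat shock proteins. By edgeR's quasi-likelihood test with Benjamini-Hochberg adjustment, 3993 genes were higher at 4 weeks (16.9% of those tested) and 4678 were lower (19.8%). Without control, 4 week, replicate 1 the calls were 5960 higher (24.4% of 24400 tested) and 7411 lower (30.4%), and 8606 of the 8671 genes first called were called again in the same direction. Of 30 list counts of 20 or more, leaving out control, 48 hour, replicate 1 or 2 moved 11 and 12 by over 1.5 times. Leaving out control, 4 week, replicate 3 or control, 48 hour, replicate 1 or 2 left 2609, 2567 and 2317 genes higher, and leaving out the last left 3060 lower. The falls were the larger changes: 1430 called genes were lower by 16-fold or more and 284 were higher by that much. Genes that went from at least 10 CPM at 48 hours to under 1 CPM at 4 weeks numbered 507, and 83 genes did the reverse. Over the 23656 genes tested, 5743 had all 3 libraries of 4 weeks above all 3 of 48 hours. For 6662 they were all below. Of the 8671 called genes 8543 had no overlap, so a lack of overlap stated below adds little to a call. The median log2 fold change over all genes tested was -0.02. With library totals alone for scaling, the median moved by -0.185 and the calls were 2987 higher and 5642 lower, so changes are relative to the scaling chosen. In bulk tissue, fewer cells of a type and less RNA per cell cannot be told apart.

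**Figure D1:**
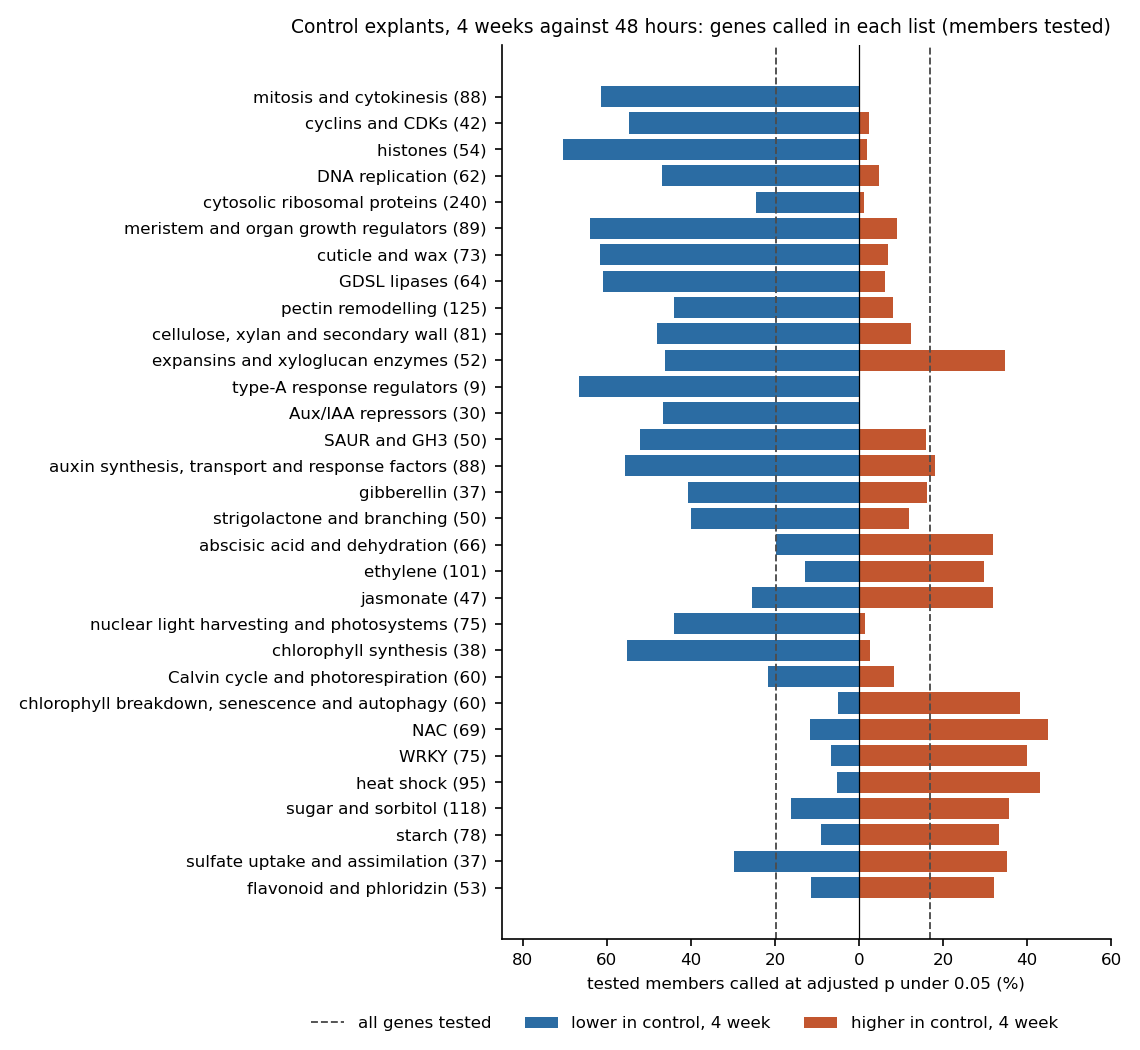
Share of the tested members of each gene list (number tested in brackets) called lower (left, blue) or higher (right, orange) in control, 4 week against control, 48 hour, in percent, with dashed lines at the shares over all genes tested, 19.8% lower and 16.9% higher. Lists of division, growth, cuticle and auxin response reach past the left line. The list of chlorophyll breakdown, senescence and autophagy and those of NAC, WRKY and heat shock reach past the right one.

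Genes of cell division were among those lower at 4 weeks. Of 88 tested genes of mitosis and cytokinesis 54 fell and 0 rose by edgeR (1 was higher at an unadjusted p under 0.05, and 0 by DESeq2), with a median log2 fold change of -2.36 (without replicate 1, 61 fell and 2 rose). Kinesin KIN-12F (DVH24_004043), a motor of the kind that guides the new cell plate, was at 66.3, 36.5 and 42.1 CPM in the 48 hour libraries and at 0.352, 0.333 and 0.364 CPM in the 4 week libraries. Its 4 week libraries were nearly equal and all far below the lowest 48 hour library (log2 fold change -7.08 ± 0.36 (SE), adjusted p = 0.00011). Condensin subunit 2 (DVH24_032358), which compacts chromosomes, changed by -5.24 ± 0.35 (adjusted p = 0.00017) with no overlap between groups. Among cyclins and cyclin-dependent kinases 23 of 42 fell and 1 rose (median -2.0, and 28 fell and 2 rose without replicate 1). Cyclin-A2-1 (DVH24_012194) stood at 55.4, 50.4 and 30.1 CPM at 48 hours and at 0.754, 1.33 and 1.02 CPM at 4 weeks. Cyclin-D3-1 (DVH24_021694), of the class that links cytokinin and sugar to entry into the cycle in Arabidopsis, stood at 60.4, 78.9 and 72 CPM and then at 6.54, 3.44 and 3.06 CPM. The groups did not overlap for either cyclin, and replicate 1 was the lowest 4 week library for the A-type gene and the highest for the D-type gene. Their log2 fold changes were -5.44 ± 0.37 (adjusted p = 0.00018) and -4.01 ± 0.34 (adjusted p = 0.00035). The most abundant member, named cyclin-B1-2 (DVH24_028377), did not pass the test (0.37 ± 0.19, adjusted p = 0.17).

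In DNA replication and chromatin too more genes were called lower than higher. Of 62 replication genes 29 fell and 3 rose (median -0.98, and 36 and 5 without replicate 1). MCM4 (DVH24_042440), a subunit of the replicative helicase, was at 21.9, 30.4 and 24 CPM at 48 hours and 2.01, 3.06 and 2.77 CPM at 4 weeks, and its relatives MCM5 (DVH24_029019) and MCM2 (DVH24_041154) changed by -4.2 ± 0.38 and -5.29 ± 0.48 (adjusted p = 0.00041 and 0.00042). For MCM4 every 4 week library lay below every 48 hour library, and replicate 1 was the lowest of its group. The large subunit of ribonucleotide reductase (DVH24_039470), which makes deoxynucleotides, fell less (-2.1 ± 0.18, adjusted p = 0.00036). Histones, a list that holds core histones and the linker histone H1, fell in 38 of 54 cases and rose in 1 (median -1.79, and 43 and 2 of 56 without replicate 1). A histone H3.2 gene (DVH24_011472) was at 76.9, 112 and 54.1 CPM and later at 1.11, 1.5 and 2.04 CPM, with no overlap, while the linker histone H1.2 (DVH24_010667), the most abundant member, changed by only -0.81 ± 0.25 (adjusted p = 0.037, and 0.11, 0.13 and 0.15 without control, 4 week, replicate 3 and control, 48 hour, replicates 1 and 2). Near-identical histone copies may share reads. Tubulins, which form the spindle and the cortical arrays of growing cells, were in the housekeeping list, where an alpha tubulin (DVH24_007755) went from 685, 1105 and 924 CPM to 53.8, 46.4 and 46.2 CPM. All 4 week libraries of this tubulin were similar and far below the 48 hour libraries (log2 fold change -4.21 ± 0.28, adjusted p = 0.00018). Of the whole housekeeping list 21 of 63 genes fell and 11 rose (29 and 14 without replicate 1). Cytosolic ribosomal proteins, the protein-making capacity of the cell, had a median log2 fold change of -0.43: 59 of 240 fell and 3 rose. This count depended on the settings, with 100 lower and 2 higher with library totals alone and 9 to 29 lower without 1 of the other 5 libraries. Without replicate 1, 124 fell and 8 rose.

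Regulators of meristems and organ growth had a median log2 fold change of -2.77, the lowest of all lists but the root markers, and 57 of 89 fell and 8 rose (68 and 11 of 93 without replicate 1). Growth-regulating factors promote cell proliferation in young leaves. Growth-regulating factor 6 (DVH24_012590) was at 49.5, 46.5 and 46.2 CPM at 48 hours and at 0, 0.278 and 0 CPM at 4 weeks, and factor 3 (DVH24_034978) changed by -5.84 ± 0.47 (adjusted p = 0.00031). Only replicate 2 held any count of factor 6 at 4 weeks (log2 fold change -8.83 ± 0.69, adjusted p = 0.00029). SCARECROW (DVH24_036412), a regulator of asymmetric division around vascular tissue, stood at 46.1, 112.8 and 54.7 CPM and fell to 0.302, 0.0556 and 0.146 CPM. Its 48 hour libraries spread more than those of the growth-regulating factors, with replicate 2 the highest, and still did not overlap with 4 weeks (-8.62 ± 0.61, adjusted p = 0.00022). The homeodomain-zipper gene HOX32 (DVH24_022208), of the family that sets leaf polarity and vascular patterning, fell by a smaller amount (-3.7 ± 0.32, adjusted p = 0.00038). BEL1-like homeodomain protein 1 (DVH24_019290), the most abundant member, did not pass the test (0.33 ± 0.24, adjusted p = 0.32).

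**Figure D2:**
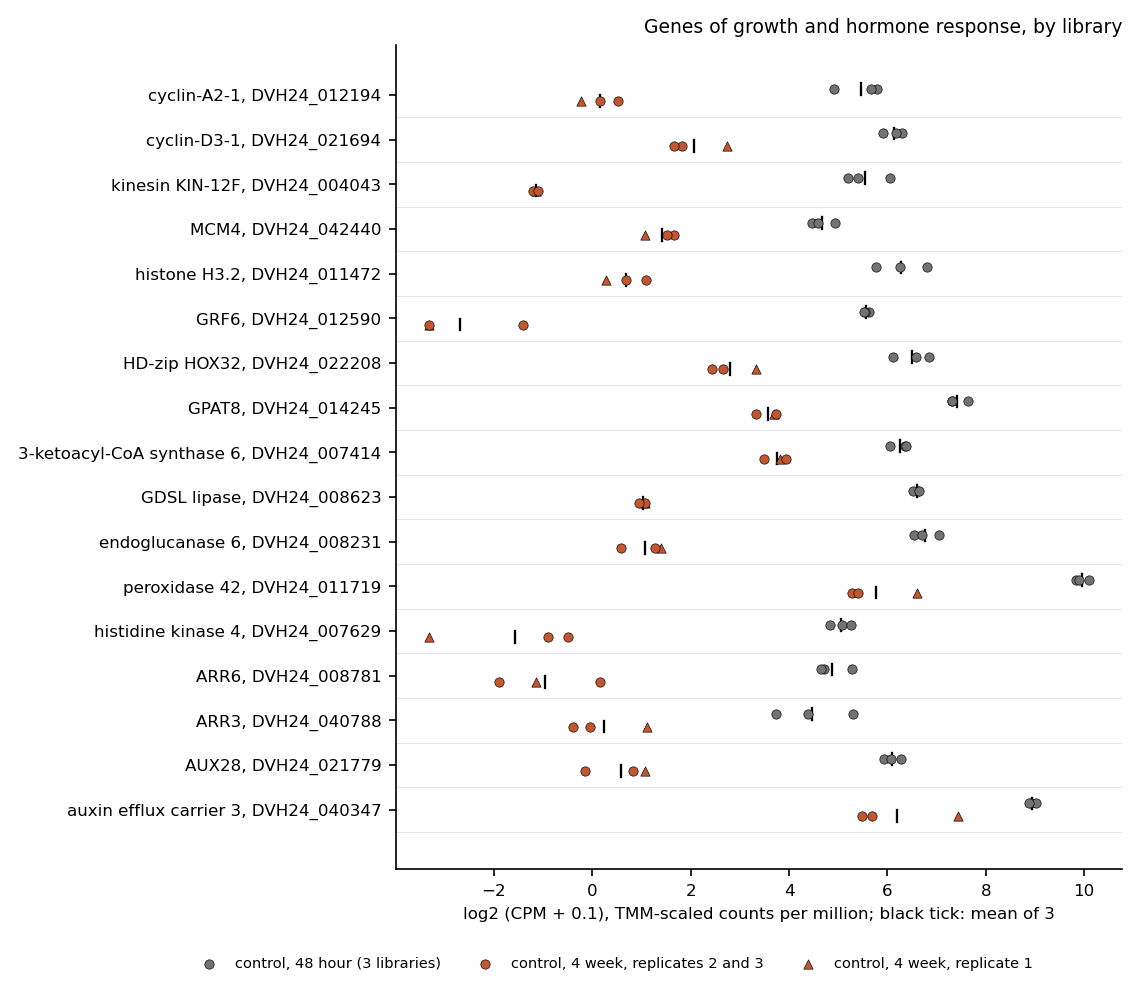
CPM of 17 genes of growth and hormone response in each library as log2 of CPM + 0.1, with grey circles for control, 48 hour, orange circles for control, 4 week, replicates 2 and 3, orange triangles for replicate 1 and black ticks for the mean log2 value of 3 libraries. The genes drawn are ones that were lower at 4 weeks, so their shared direction is no separate result. Members of the same lists that did not fall, such as cyclin-B1-2 and PIN-LIKES 1, are not drawn. In every gene drawn the 4 week libraries lie to the left of the 48 hour libraries. The triangle lies to the left of the orange circles for cyclin-A2-1 and to their right for auxin efflux carrier 3.

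The surface layer of new organs is built by epidermal cells that make cutin and wax, and 45 of 73 such genes fell and 5 rose (median -1.92, and 54 and 8 of 76 without replicate 1). Glycerol-3-phosphate acyltransferase 8 (DVH24_014245), which makes cutin monomers in Arabidopsis, was at 159, 200.1 and 159 CPM at 48 hours and at 12.8, 13.2 and 9.9 CPM at 4 weeks. The transporter ABCG32 (DVH24_017862), which exports cutin precursors, was at 119, 87.1 and 91.3 CPM and then at 12, 7.67 and 8.08 CPM. Replicates of both groups were tight and the groups did not overlap (-3.85 ± 0.22 and -3.42 ± 0.26, adjusted p = 0.00013 and 0.00026). A pair of genes for 3-ketoacyl-CoA synthase 6, which elongates wax fatty acids, fell by different amounts: DVH24_007414 changed by -2.52 ± 0.21 and the more abundant DVH24_040459 by -0.66 ± 0.19 (adjusted p = 0.00032 and 0.028). The second call was lost (adjusted p from 0.066 to 0.12) without any 1 of the 5 libraries other than control, 4 week, replicate 1. GDSL esterases and lipases, a family that includes cutin synthases, fell in 39 of 64 cases and rose in 4 (45 and 5 of 65 without replicate 1). The gene named LTL1 (DVH24_036863) stood at 289.5, 235 and 187 CPM at 48 hours and had no count in any 4 week library. Set against 3 counts over the 4 week group it was at least 4094-fold lower, the largest such value among the named genes. A second gene of this name (DVH24_036862) went from 154, 38.9 and 36.1 CPM to no count, and was at least 1330.2-fold lower.

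Most called enzymes of the growing wall fell, with exceptions among the xyloglucan enzymes. In pectin remodelling 55 of 125 genes fell and 10 rose (median -1.04, and 80 and 13 of 134 without replicate 1). A gene named pectate lyase 5 (DVH24_033738) was at 70.9, 78.8 and 83.9 CPM at 48 hours and had no count at 4 weeks, at least 1338-fold lower, and pectinesterase 68 (DVH24_035926) went from 130.4, 27.1 and 47.6 CPM to no count, at least 1187-fold lower. In cellulose, xylan and secondary wall genes 39 of 81 fell and 10 rose (53 and 13 of 85 without replicate 1). Endoglucanase 6 (DVH24_008231) was at 93.6, 104 and 132 CPM and then at 2.51, 1.39 and 2.33 CPM. Cellulose synthase subunit 7 (DVH24_017596), which makes cellulose of secondary walls, went the other way, from 95.7, 93.2 and 106 CPM to 201, 1455 and 1349.8 CPM. Its replicate 1 was well under the other 4 week libraries but above all 48 hour libraries (3.35 ± 0.67, adjusted p = 0.0074). Expansins and xyloglucan enzymes split, with 24 of 52 lower and 18 higher (29 and 20 of 53 without replicate 1). Expansin-A8 (DVH24_022849), which loosens walls of expanding cells, fell (-4.69 ± 0.27, adjusted p = 0.00013), while the xyloglucan endotransglucosylase DVH24_032690 rose from 2.8, 1.04 and 2.8 CPM to 83.2, 102 and 102.7 CPM. A pair of genes named 36.4 kDa proline-rich protein, of a wall protein type, had the largest falls in CPM outside photosynthesis. The gene DVH24_032608 was at 1581, 2403 and 2721 CPM at 48 hours and at 71.5, 3.22 and 4.37 CPM at 4 weeks, and DVH24_017737 at 1603, 2168 and 1247 CPM and then at 48.6, 1.28 and 2.55 CPM. Replicate 1 was the highest of the 4 week libraries in both and still far under every 48 hour library (-6.4 ± 1.32 and -6.57 ± 1.43, adjusted p = 0.0081 and 0.01). Class III peroxidases, which cross-link wall polymers, fell in 16 of 41 cases and rose in 3 (27 and 2 of 43 without replicate 1). Peroxidase 42 (DVH24_011719), their most abundant member, was at 1097, 915 and 958 CPM at 48 hours and at 97.6, 39 and 42.2 CPM at 4 weeks.

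Most type-A response regulators, whose transcripts follow cytokinin signalling, were lower at 4 weeks although no cytokinin had been added to either medium. Of the 9 type-A response regulators tested 6 fell and 0 rose at a median log2 fold change of -2.75 (8 fell and 0 rose without replicate 1), set against 19.8% lower among all genes. At an unadjusted p under 0.05, and also by DESeq2, 7 were lower and 0 higher. The gene named ARR6 (DVH24_008781) was at 26.1, 25.1 and 38.6 CPM at 48 hours and at 0.352, 0.167 and 1.02 CPM at 4 weeks (-5.92 ± 0.57, adjusted p = 0.00051). The ARR3 gene DVH24_040788 was at 13.2, 20.7 and 39.1 CPM and then at 2.06, 0.667 and 0.874 CPM (-4.31 ± 0.59, adjusted p = 0.0016). Every 4 week library of both genes lay below every 48 hour library, whose replicate 3 was the highest. A second ARR3 gene (DVH24_007079), ARR9 (DVH24_019719), ARR17 (DVH24_024436) and ORR4 (DVH24_042790, no count at 4 weeks) fell too, with -2.75 ± 0.48, -4.42 ± 0.8 and -2.2 ± 0.56 for the first 3 and at least 14-fold for the last. The call of ARR17 was lost (adjusted p from 0.05 to 0.073) without any 1 of the 5 libraries other than control, 4 week, replicate 1. Those that did not pass were ORR9 (DVH24_015948, -0.65 ± 0.46), the other ORR4 (DVH24_006913, -1.03 ± 0.59) and ORR10 (DVH24_004874, -1.84 ± 0.77), with adjusted p = 0.3, 0.21 and 0.098. Replicate 1 of ORR9, at 10.7 CPM, was as high as the 48 hour libraries, and without it ORR9 and ORR10 were called lower (-1.32 and -2.85, adjusted p = 0.0057 and 0.0065). Further ARR17 genes, 3 in number, had too few counts to be tested.

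Receptors and transmitters of the pathway did not move together. The receptor named histidine kinase 4 (DVH24_007629) was at 28.6, 33.8 and 38.2 CPM at 48 hours and 0, 0.611 and 0.437 CPM at 4 weeks, and histidine kinase 2 (DVH24_032453) at 45.2, 42.3 and 33.4 CPM and 4.93, 2.72 and 5.53 CPM. Both fell without overlap (-6.61 ± 0.72 and -3.2 ± 0.31, adjusted p = 0.00075 and 0.00053), whereas histidine kinase 3 (DVH24_025102), the most abundant gene of the list, did not pass the test (0.29 ± 0.18, adjusted p = 0.24). Among phosphotransfer proteins named AHP1, DVH24_027164 rose (3.39 ± 0.42) and DVH24_015255 fell (-3.32 ± 0.43), with adjusted p = 0.0012 and 0.0013. Over the whole list of synthesis and perception 9 of 35 genes fell and 6 rose (12 and 7 of 37 without replicate 1, and 5 to 7 lower without 1 of the other 5 libraries). Cytokinin dehydrogenases, which destroy the hormone, numbered 6 tested, of which 1 rose and 1 fell. The riser, dehydrogenase 7 (DVH24_020512), was at 18.3, 14.3 and 19.7 CPM and then at 80.5, 55.6 and 44.9 CPM (1.79 ± 0.27, adjusted p = 0.0023). The faller, dehydrogenase 5 (DVH24_012939), changed by -5.46 ± 0.94 (adjusted p = 0.0041). The remaining 4 had positive values that did not pass, from 0.73 (DVH24_012708, 1.27 and called without control, 48 hour, replicate 3) to 1.20 (DVH24_020176, 1.5 and called without control, 4 week, replicate 1). Without replicate 1, 3 of 7 rose and 2 fell.

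Auxin moves down from the young shoot tip and its response genes mark growing tissue. Aux/IAA repressors, which are induced by auxin, fell in 14 of 30 cases and rose in 0 by edgeR (median -1.58, with 18 lower and 0 higher at an unadjusted p under 0.05 and 19 and 0 by DESeq2), and in 25 and 1 of 31 without replicate 1. Without 1 of the other 5 libraries 8 to 12 fell. AUX28 (DVH24_021779) was at 77.9, 61.1 and 67.5 CPM at 48 hours and at 2.01, 1.67 and 0.801 CPM at 4 weeks, with all 4 week libraries far lower (-5.49 ± 0.35, adjusted p = 0.00016). The IAA27 gene DVH24_017983, the most abundant, was at 139, 161 and 195 CPM and then at 80, 28.2 and 21.6 CPM. There replicate 1 lay between the groups (-1.93 ± 0.48, adjusted p = 0.017, and -2.72 without it, with adjusted p = 0.051 and 0.061 without control, 4 week, replicate 2 and control, 48 hour, replicate 3). SAUR and GH3 genes, small growth proteins and auxin-conjugating enzymes, fell in 26 of 50 cases and rose in 8 (median -2.45, and 36 and 10 of 54 without replicate 1). A SAUR of the name ARG7 (DVH24_002518) went from 12.9, 16.5 and 14.6 CPM to no count, at least 252-fold lower. Of genes for auxin synthesis, transport and response factors 49 of 88 fell and 16 rose (57 and 19 of 90 without replicate 1). The efflux carrier named component 3 (DVH24_040347), their most abundant member, was at 484, 522 and 468 CPM at 48 hours and at 172, 44.8 and 51.6 CPM at 4 weeks. Replicate 1 was well above the other 4 week libraries yet under every 48 hour library (-2.46 ± 0.52, adjusted p = 0.0092). Auxin response factor 19 (DVH24_029555), an activator of auxin genes, fell in all 3 alike (-5.47 ± 0.38, adjusted p = 0.00021), and PIN-LIKES 1 (DVH24_009586), an intracellular auxin carrier, rose (2.92 ± 0.23, adjusted p = 0.00028).

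Gibberellin genes fell in 15 of 37 cases and rose in 6 (22 and 10 of 41 without replicate 1), on media that all held gibberellic acid. Both called receptors of the name GID1B rose. Receptor DVH24_002763 was at 40.1, 38.6 and 36.9 CPM at 48 hours and at 308, 257 and 309.7 CPM at 4 weeks, and DVH24_027175 at 75.4, 81.7 and 90.9 CPM and 441, 463 and 518 CPM. Their replicates were tight and did not overlap (2.92 ± 0.2 and 2.52 ± 0.21, adjusted p = 0.00018 and 0.00032). Small proteins of the gibberellin-regulated family went the other way: protein 6 (DVH24_037114) was at 89.2, 113.3 and 109.8 CPM and had no count at 4 weeks, at least 1788-fold lower, and protein 14 (DVH24_031811) changed by -6.2 ± 0.52 (adjusted p = 0.00034). Strigolactones restrain branching, and of the strigolactone and branching list 20 of 50 genes fell and 6 rose (31 and 6 without replicate 1, and 12 to 16 lower without 1 of the other 5 libraries). Fallers of this list included SMAX1-LIKE 4 (DVH24_002102, -7.61 ± 0.78), SMAX1-LIKE 3 (DVH24_034842, -3.45 ± 0.33) and the TCP15 factor (DVH24_040717, -2.04 ± 0.23), with adjusted p = 0.0006, 0.00047 and 0.00083. The list was drawn by protein name, and a part of these SMAX1-LIKE genes in strigolactone response or branching was not tested. Brassinosteroid and sterol genes fell in 14 of 51 cases and rose in 7, with 26 and 8 without replicate 1 and 9 to 12 lower without 1 of the others.

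Hormones of stress and ageing showed mixed lists with strong single genes. Among ethylene genes 30 rose and 13 fell (29.7% and 12.9%, against 16.9% and 19.8% of all genes). Without replicate 1 36 rose and 35 fell, so the balance depends on that library. The shares over all genes then were 24.4% higher and 30.4% lower, so the move towards falls was in part that of all genes. In that fit the list's share of risers was above, and its share of fallers near, that of all genes. Without 1 of the other 5 libraries 16 to 22 rose. The response factor ERF5 (DVH24_001192) was at 16.3, 12.8 and 13.2 CPM at 48 hours and at 92.6, 106 and 126 CPM at 4 weeks, with no overlap (2.94 ± 0.21, adjusted p = 0.00023). A factor of the name ERF1B (DVH24_001840) rose from 2.21, 1.22 and 1.62 CPM to 32.4, 16.8 and 24.6 CPM. Abscisic acid and dehydration genes counted 21 risers and 13 fallers of 66 (26 and 23 of 68 without replicate 1). Without 1 of the other 5 libraries 9 to 14 rose. Their median, 0.11, turned to -0.08 with library totals alone. Genes of the name desiccation-related protein PCC13-62 moved in opposite directions: DVH24_025337 was at 37.3, 18.6 and 38.9 CPM and then at 389, 3493 and 3193 CPM, and DVH24_002678 at 106, 122 and 118 CPM and then at 0, 0.833 and 0.291 CPM. Replicate 1 lay between the groups for the riser and had no count of the faller (6.22 ± 0.89 and -8.25 ± 0.75, adjusted p = 0.002 and 0.00042). Among 47 jasmonate genes 15 rose and 12 fell (18 and 24 of 50 without replicate 1). A lipoxygenase of jasmonate synthesis (DVH24_016189) was at 739, 948 and 659 CPM and then at 3848, 2945 and 3099 CPM. Jasmonate-induced oxygenase 2 (DVH24_023747), of a family that inactivates jasmonate in Arabidopsis, rose by 3.32 ± 0.26 (adjusted p = 0.00028), and the JAZ-type repressor TIFY 3B (DVH24_018307) fell (-3.07 ± 0.23, adjusted p = 0.00027).

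Among photosynthesis genes encoded in the nucleus more were called lower than higher, and the counts depended strongly on replicate 1. Of 75 genes for light harvesting and photosystems 33 fell and 1 rose (median -1.37), and without replicate 1 67 of 76 fell and 1 rose. With RLE scaling and library totals alone 41 and 47 fell, and without 1 of the other 5 libraries 19 to 23. A chlorophyll a-b binding protein 3 gene (DVH24_017451) was at 3782, 3173 and 2791 CPM at 48 hours and at 1646, 528 and 465 CPM at 4 weeks (-1.88 ± 0.53, adjusted p = 0.027, and -2.71 without replicate 1). Its replicate 1 lay between the 48 hour libraries and the other 4 week libraries, and the call was lost (adjusted p from 0.061 to 0.08) without any other library. The antenna protein CP29.3 (DVH24_022956) differed in this, with 240.0, 203 and 199.7 CPM at 48 hours and an even 43.2, 53.5 and 49.1 CPM at 4 weeks (-2.14 ± 0.19, adjusted p = 0.00042). The largest fall in CPM was that of a rubisco small subunit gene (DVH24_031002), part of the enzyme that fixes carbon dioxide, from 13788, 13857 and 12179 CPM to 8009.7, 3698 and 4068 CPM (-1.34 ± 0.44, adjusted p = 0.047). That call too was lost (adjusted p from 0.088 to 0.16) without any 1 library other than replicate 1 of 4 weeks. Per length it remained one of the most abundant transcripts named here, with a mean of 26206 FPKM (deposited fragment counts relative to transcript length and library total) at 48 hours and 10469 FPKM at 4 weeks. Calvin cycle and photorespiration genes as a list fell in 13 of 60 cases and rose in 5, close to the background of 19.8% for falls, and in 32 and 6 of 61 without replicate 1, and 3 to 9 fell without 1 of the others. Of 28 plastid-encoded proteins edgeR called 0 in either direction (0 higher and 1 lower at an unadjusted p under 0.05, and the same counts by DESeq2), and without replicate 1 6 rose and 4 fell. Photosystem II D2 (DVH24_034793) was at 439.5, 423 and 402 CPM at 48 hours and at 36.8, 1806 and 1457 CPM at 4 weeks, so that replicate 1 lay under and the other 4 week libraries above the 48 hour level (adjusted p = 0.32, and 5.3e-06 without replicate 1). Plastid transcripts carry few poly(A) tails, and the libraries were made from poly(A) RNA.

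More genes of chlorophyll synthesis were called lower than higher, and in the list that holds its breakdown more were called higher than lower. Chlorophyll synthesis genes fell in 21 of 38 cases and rose in 1 (median -0.94, and 30 and 1 without replicate 1, and 12 to 14 lower without 1 of the other 5 libraries). Uroporphyrinogen decarboxylase (DVH24_022875), an enzyme of the porphyrin ring, was at 108, 86.8 and 83.5 CPM and then at 28.5, 17.7 and 18.3 CPM (-2.11 ± 0.25, adjusted p = 0.00099). The magnesium chelatase subunit ChlI (DVH24_011445), which inserts the metal, was at 171, 129.6 and 100.9 CPM and then at 51.9, 38.1 and 38.5 CPM. In both the groups were apart and replicate 1 was the highest of the 4 week libraries. The riser was a glutamyl-tRNA reductase (DVH24_002511), the entry enzyme of tetrapyrrole synthesis (1.44 ± 0.21, adjusted p = 0.002). Of chlorophyll breakdown, senescence and autophagy genes 23 of 60 rose and 3 fell, with a median of 0.64 (32 and 7 without replicate 1). With library totals alone 13 rose and 3 fell, and without 1 of the other 5 libraries 9 to 11 rose. Pheophorbide a oxygenase (DVH24_005817), which opens the chlorophyll ring, was at 117, 103.5 and 102.8 CPM at 48 hours and at 384, 743 and 737 CPM at 4 weeks. Pheophytinase (DVH24_006583), which acts before it, was at 13.1, 17.6 and 16.5 CPM and then at 44, 72.8 and 56.2 CPM. Both rose in every library, least in replicate 1 (2.53 ± 0.31 and 1.88 ± 0.25, adjusted p = 0.0011 and 0.0014). An autophagy protein of the name ATG8C (DVH24_016996) rose (2.01 ± 0.32, adjusted p = 0.0028), while chlorophyllase-1 (DVH24_002883) fell from 36.8, 43.6 and 20.7 CPM to 2.41, 0.111 and 0.51 CPM (-5.0 ± 0.84, adjusted p = 0.0038).

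Transcription factor families known from ageing and stress rose more often than they fell. NAC factors, which include regulators of leaf senescence, rose in 31 of 69 cases and fell in 8 (median 0.89, and 37 and 17 of 74 without replicate 1). The most abundant, of the name JA2L (DVH24_003183), was at 71.3, 33.9 and 80.2 CPM at 48 hours and at 131, 775 and 817 CPM at 4 weeks. Replicate 1 was above every 48 hour library but near them (3.22 ± 0.69, adjusted p = 0.0096). NAC87 (DVH24_018989), a factor of cell death in Arabidopsis roots, rose evenly from 4.59, 5.0 and 5.48 CPM to 35, 26.6 and 35.5 CPM. WRKY factors, known from pathogen response and senescence, rose in 30 of 75 cases and fell in 5 (median 0.77, and 35 and 14 of 77 without replicate 1). WRKY40 (DVH24_000037) was at 11.1, 8.11 and 10.8 CPM and then at 67.5, 83.6 and 75.1 CPM (2.91 ± 0.21, adjusted p = 0.00023), and WRKY6 (DVH24_011739), their most abundant member, changed by 2.03 ± 0.33 (adjusted p = 0.0031). All 4 week libraries of both lay above all 48 hour libraries. Of wound and touch response genes 17 of 43 rose and 5 fell (24 and 8 of 46 without replicate 1), and the risers included the calcium-binding protein CML27 (DVH24_009133, 2.49 ± 0.25, adjusted p = 0.00059).

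The 10 genes named for the highest rises were chosen among genes without overlap between groups. Of these, 3 encode thaumatin-like proteins and 2 encode small heat shock proteins. Thaumatin-like genes went both ways, as the 10 genes named for the lowest folds hold 1 too (DVH24_009135). That gene went from 47.6, 108.9 and 47.9 CPM at 48 hours to no count at 4 weeks, at least 1172-fold lower. A pair of genes named thaumatin-like protein 1a had the largest gains in CPM: DVH24_035284 was at 25.6, 2.56 and 18.1 CPM at 48 hours and at 3259, 13421 and 14048 CPM at 4 weeks, and DVH24_035288 at 20.6, 1.77 and 23.1 CPM and then at 2607, 9839.7 and 11445 CPM. Thaumatin-like proteins are pathogenesis-related proteins, and near-identical copies may share reads. For both, replicate 1 was well under replicates 2 and 3 and still far above the highest 48 hour library (9.38 ± 1.18 and 9.04 ± 1.23, adjusted p = 0.0012 and 0.0016). Metallothionein type 3 (DVH24_003649), a small metal-binding protein, rose from 1269, 1134 and 1154 CPM to 12115, 6818 and 5846 CPM and reached 44209 FPKM, above the rubisco small subunit named above. Here replicate 1 was the highest library (2.8 ± 0.41, adjusted p = 0.0021). The genes with the largest gains in CPM also included a pair known from protein folding and turnover: a cyclophilin, peptidyl-prolyl isomerase 1 (DVH24_009939), was at 1343, 1266 and 1347 CPM and then at 2803, 7132 and 6738 CPM, and polyubiquitin-A (DVH24_011692), which tags proteins for degradation, at 795, 1349 and 1143 CPM and then at 2442, 4717 and 4389 CPM. In both every 4 week library lay above every 48 hour library and replicate 1 was the lowest of its group (2.08 ± 0.42 and 1.81 ± 0.38, adjusted p = 0.008 and 0.0091). Heat shock proteins and factors rose in 41 of 95 cases and fell in 5 (median 1.04, and 61 and 10 of 100 without replicate 1, and 24 to 36 higher without 1 of the other 5 libraries). A small heat shock protein of mitochondria (DVH24_031286) was at 0, 0.061 and 0.249 CPM and then at 20.7, 154 and 151 CPM, and the chloroplast disaggregase ClpB3 (DVH24_037017) at 74.6, 80 and 97.7 CPM and then at 384, 477 and 428 CPM. Replicate 1 was low for the first and level with its group for the second (9.95 ± 1.13 and 2.35 ± 0.22, adjusted p = 0.00087 and 0.00045). Heat stress factor B-4 (DVH24_012471) went against the list (-6.03 ± 0.73, adjusted p = 0.0011), and HSP90-2 (DVH24_041871), its most abundant member, did not pass (-0.12 ± 0.3, adjusted p = 0.79). Cucumber peeling cupredoxin (DVH24_029143), a blue copper protein, had no count at 48 hours and 1.61, 78.7 and 94.5 CPM at 4 weeks, at least 873-fold higher against 3 counts over the 48 hour group, and nearly all of it was in replicates 2 and 3. Other defence proteins were divided, with 29 of 116 higher and 37 lower (38 and 57 of 123 without replicate 1). An endochitinase (DVH24_029657) fell from 82.3, 80.8 and 86.3 CPM to 0.905, 2.33 and 1.38 CPM while glucanase 14 (DVH24_005672) rose from 9.3, 7.93 and 11.6 CPM to 171, 225 and 252 CPM.

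**Figure D3:**
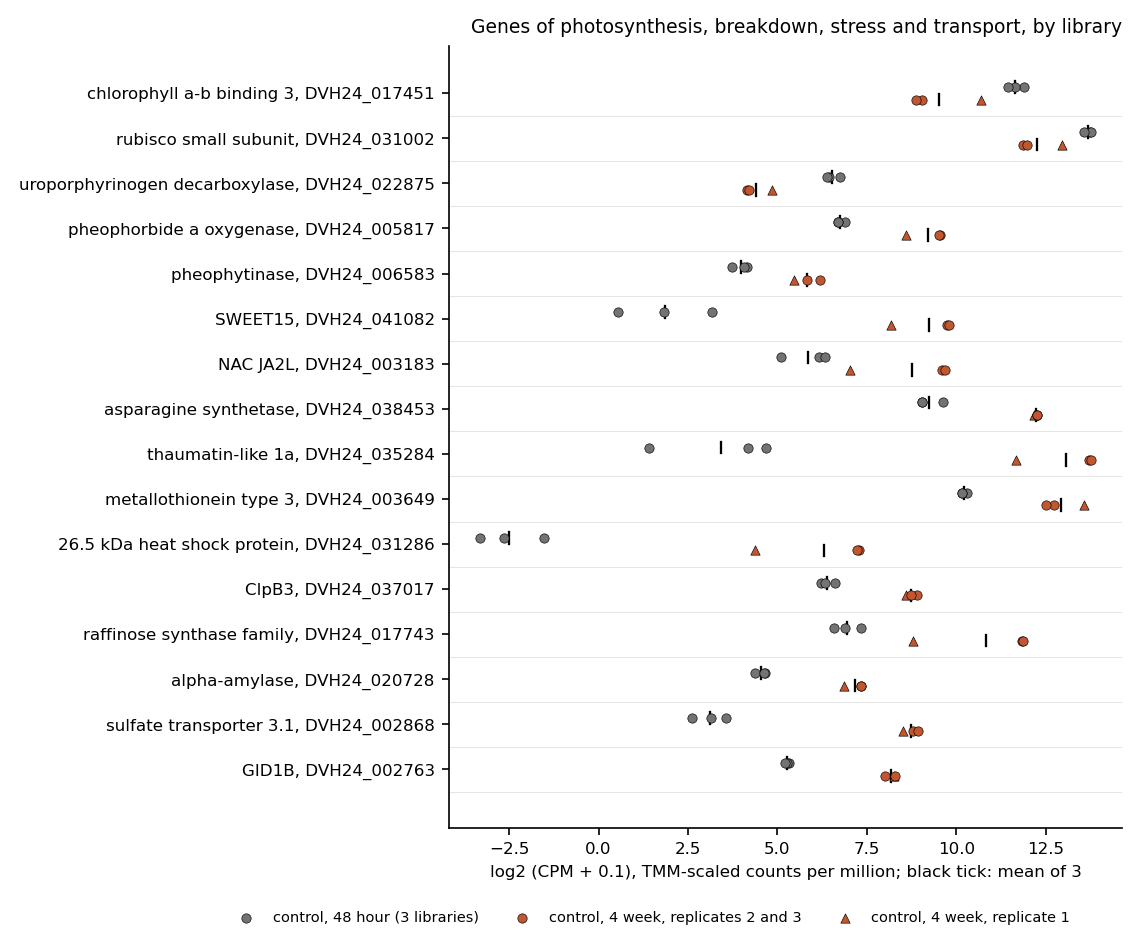
CPM of 16 genes of photosynthesis, breakdown, stress and transport in each library as log2 of CPM + 0.1, with the same symbols for groups and for control, 4 week, replicate 1 (triangle) as in the plot of growth genes. The triangle lies between the groups for chlorophyll a-b binding protein 3 and NAC JA2L, and on the far side of the other 4 week libraries for metallothionein type 3.

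Genes of phenolic metabolism moved in both directions within each list. Of 90 phenylpropanoid and lignin genes 20 rose and 19 fell (22.2% and 21.1%, against 16.9% and 19.8% of all genes). The counts were 23 and 37 of 93 without replicate 1 and 15 and 21 with library totals alone. Without 1 of the other 5 libraries 13 to 18 rose. The entry enzyme phenylalanine ammonia-lyase 1 (DVH24_004645) was at 228, 354 and 298 CPM at 48 hours and at 1003, 952 and 986 CPM at 4 weeks. A hydroxycinnamoyltransferase (DVH24_031157), which feeds lignin and chlorogenic acid, was at 43.2, 31.2 and 50.5 CPM and then at 513, 1172 and 1258 CPM. Both rose in every library (1.74 ± 0.25 and 4.56 ± 0.43, adjusted p = 0.0021 and 0.00047), and a laccase (DVH24_025052) did as well (2.89 ± 0.23, adjusted p = 0.00031). Cinnamyl alcohol dehydrogenase 6 (DVH24_020088) fell from 70.9, 74.2 and 56.1 CPM to 0.201, 0.278 and 0.218 CPM. Among 53 flavonoid and phloridzin genes 17 rose and 6 fell, but the split was 19 and 18 of 58 without replicate 1. A dihydroflavonol reductase (DVH24_012918), a step towards anthocyanins and tannins, rose from 132, 181 and 193 CPM to 861, 598 and 591 CPM. A glycosyltransferase of the name 88F3 (DVH24_033343), from a group that makes phloridzin, the main apple phenolic, fell from 9.07, 12.4 and 19.3 CPM to 1.11, 1.0 and 0.655 CPM (-3.86 ± 0.43, adjusted p = 0.00081). Leucoanthocyanidin dioxygenase (DVH24_007939) was high in replicate 1 alone, at 1267, 337 and 337 CPM against 398, 471 and 395 CPM at 48 hours, and did not pass (adjusted p = 0.39).

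Starch and sugar genes rose more often than they fell. Of 78 starch genes 26 rose and 7 fell (median 0.46, and 36 and 12 of 79 without replicate 1, and 17 to 20 higher without 1 of the other 5 libraries). The risers of smallest p were degrading enzymes: an alpha-amylase (DVH24_020728) went from 25.2, 20.5 and 24.5 CPM to 117, 161 and 161 CPM, and alpha-amylase 3 of the plastid (DVH24_007136) and isoamylase 3 (DVH24_016768) changed by 2.12 ± 0.21 and 2.12 ± 0.25 (adjusted p = 0.00052 and 0.00096). The gene named LSF1 (DVH24_031771), the most abundant of the starch list, fell from 1433, 1133 and 877 CPM to 329, 99 and 95.2 CPM. Of 118 sugar and sorbitol genes 42 rose and 19 fell (51 and 35 of 122 without replicate 1, and 25 to 31 higher without 1 of the others), and their median of 0.18 turned to -0.01 with library totals alone. SWEET15 (DVH24_041082), a sucrose exporter also known as a senescence-associated gene in Arabidopsis, was at 8.83, 3.48 and 1.37 CPM at 48 hours and at 290.3, 856 and 888 CPM at 4 weeks. A galactosyltransferase of raffinose synthesis (DVH24_017743) was at 118, 96.3 and 161 CPM and then at 446, 3647 and 3704 CPM, and galactinol synthase 2 (DVH24_041246), which supplies it, rose by 4.85 ± 0.43 (adjusted p = 0.00039). Replicate 1 was above the 48 hour libraries and under the other 4 week libraries for the first pair and was the highest library for galactinol synthase (7.21 ± 0.84 and 4.38 ± 0.78, adjusted p = 0.00096 and 0.0047). A sucrose transport protein (DVH24_037594) went from 19.2, 23.4 and 19.6 CPM to no count, at least 356-fold lower.

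Single genes of mineral nutrition changed strongly within mixed lists. Asparagine synthetase (DVH24_038453), which packs nitrogen for transport, was at 526, 529.8 and 792 CPM at 48 hours and at 4598, 4920.0 and 4864 CPM at 4 weeks. The 4 week libraries of this gene agreed closely, replicate 1 included (2.96 ± 0.33, adjusted p = 0.0008). The nitrate transporter NRT2.7 (DVH24_031752), of the vacuole in Arabidopsis seeds, rose by 4.24 ± 0.23 (adjusted p = 0.00012). The nitrogen list held 12 higher and 10 lower of 65, and 15 and 26 of 66 without replicate 1 (12 and 13 with library totals alone). Sulfate transporter 3.1 (DVH24_002868) was at 8.77, 5.98 and 11.7 CPM and then at 362, 444 and 489.8 CPM, and sulfite reductase (DVH24_013205) rose by 2.0 ± 0.24 (adjusted p = 0.0011). Of sulfate genes 13 of 37 rose and 11 fell (16 and 11 without replicate 1, and 7 to 9 higher without 1 of the other 5 libraries), a split that became 11 and 11 with RLE scaling and 8 and 11 with library totals alone. Copper transporter 2 (DVH24_038568) rose from 9.78, 7.14 and 8.09 CPM to 83.4, 211 and 146 CPM in a list of metal genes with 23 higher and 12 lower of 73 (27 and 22 of 74 without replicate 1, and 13 to 17 higher without 1 of the others). The median of that list, 0.16, turned to -0.02 with library totals alone. Aquaporins, the water channels, fell in 11 of 26 cases and rose in 3 (18 and 5 of 28 without replicate 1): PIP2-7 (DVH24_034557) was at 89.4, 103.3 and 65.4 CPM and then at 1.86, 3.11 and 2.84 CPM, and PIP1-4 (DVH24_022984), the most abundant, rose from 492, 598 and 708 CPM to 1172, 1863 and 2074 CPM. In a list of phloem and callose genes 17 of 39 were lower and 5 higher (21 and 8 of 41 without replicate 1), among them SIEVE ELEMENT OCCLUSION B (DVH24_013431), which fell from 16.9, 17.5 and 18.1 CPM to 0.151, 0.445 and 0.437 CPM.

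Control, 4 week, replicate 1 did not stand at the same distance from its group in every list. Genes were taken from the fit without this library, so that it had no part in choosing them: those called there with more than a 2-fold gap between the 48 hour mean and the mean of replicates 2 and 3. The place of replicate 1 was put on a scale of log2(CPM + 0.5) from 0% (48 hours) to 100% (replicates 2 and 3). The genes and the 100% mark rest on replicates 2 and 3, which by itself favours positions under 100%. The added 0.5 CPM shrinks differences between libraries near 0 CPM. Genes close to 0 CPM in all 4 week libraries, such as kinesin KIN-12F, therefore come out near 100%. The median over 9373 genes was 63.9%. Among lists of cell division it was just over 100% for mitosis and cytokinesis (53 genes), 98.1% for cyclins and cyclin-dependent kinases, 92.9% for DNA replication and 82% for histones. Photosynthesis lists had lower medians, with 28.3% for light harvesting and photosystems (62 genes), 47% for the Calvin cycle and photorespiration, 52.1% for chlorophyll synthesis and 18.6% for the 6 genes of photoprotection. For 8 plastid-encoded genes the median was -30.9%. For chlorophyll breakdown, senescence and autophagy (27 genes) it was 37.7% and for cytosolic ribosomal proteins 51.2%. These medians describe 1 library and carry no test.

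**Figure D4:**
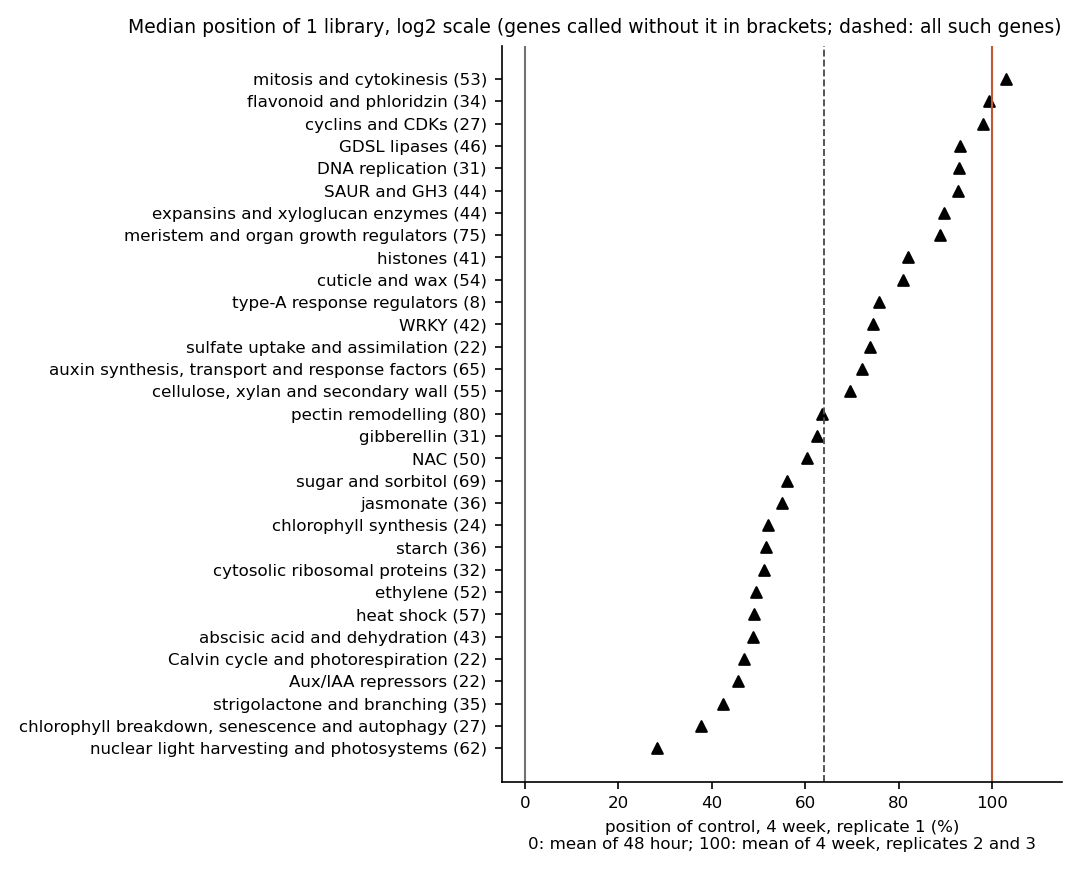
Median position of control, 4 week, replicate 1 for the genes of each list that were called without it (number of genes in brackets) on a scale where 0% is the mean of control, 48 hour and 100% the mean of control, 4 week, replicates 2 and 3, on log2(CPM + 0.5), with the dashed line at 63.9% for all such genes. Mitosis lies just over 100%, and light harvesting and photosystems at 28.3%.

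Whether shoots on a cytokinin changed in the same way was tested as the interaction of medium and time, in which the change of the control and that of the other medium share no library. The difference itself holds the control change with its sign reversed. Lists picked for falls or rises in the control therefore lean to the opposite difference in advance, and their counts are no independent support. For BAR, 3259 genes had a higher (12.9%) and 2349 a lower (9.31%) change over time than in the control, of 25230 tested, and the median difference over all genes was 0.156. The total of 5608 became 8748 without control, 4 week, replicate 1 and 3735 without BAR, 4 week, replicate 1. In several lists of organ growth and surface with many falls in the control, more genes had a higher than a lower change on BAR: 28 of 95 meristem and organ growth regulators, 33 of 79 cuticle and wax genes, 41 of 135 pectin genes and 16 of 33 Aux/IAA repressors had a higher difference, against 3, 5, 4 and 0 with a lower one. Pectate lyase 5 (DVH24_033738), at no count in the control of 4 weeks, was at 68.6 ± 6.0 CPM (SD, n = 3) on BAR at 48 hours and 7.97 ± 0.993 CPM at 4 weeks, on a common scale of all 18 libraries. Oxysterol-binding protein 4C (DVH24_018870), a lipid-binding protein, had a log2 fold change over time of -6.87 in the control and -0.10 on BAR. Both were among the 5 genes of smallest p in this test, with differences of 10.34 ± 0.51 and 6.79 ± 0.48 (SE) on the log2 scale and adjusted p = 8e-06 and 1.5e-05 by edgeR's quasi-likelihood test. The first is a fitted value against a control without counts and is no bound. The lists of cell division had negative medians on both media. That of mitosis and cytokinesis had a median of -2.36 in the control and -1.61 on BAR, with a higher difference in 14 of 93 genes and a lower one in 1. A higher difference was called for 15 of 55 histones, 9 of 43 cyclins and cyclin-dependent kinases and 6 of 63 replication genes, to be read against the 12.9% of all genes, and a lower one for 4, 0 and 2.

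In some lists with many rises in the control, but not in all, clearly more genes had a lower than a higher change on BAR. Heat shock genes had a lower difference in 40 of 99 cases and a higher one in 2. Chlorophyll breakdown, senescence and autophagy genes had 13 lower and 2 higher of 63. Starch genes had 24 lower and 10 higher of 82, and sugar and sorbitol genes 36 and 16 of 123. The split was near even for NAC factors (15 lower and 14 higher of 81) and for wound and touch response genes (8 and 7 of 48). WRKY factors had 9 lower and 6 higher of 81, whereas ethylene genes had 13 lower and 23 higher. Over all genes tested 9.31% had a lower and 12.9% a higher difference. The lower differences of WRKY factors and the higher ones of starch genes were near these shares. Pheophorbide a oxygenase (DVH24_005817) had a log2 fold change of 2.53 in the control and -0.33 on BAR (difference -2.84 ± 0.38, adjusted p = 0.00054). Thaumatin-like protein 1a (DVH24_035284) had 9.38 in the control and -4.13 on BAR (difference -13.51 ± 2.15, adjusted p = 0.0014). On the common scale its BAR libraries were at 81.2 ± 128 CPM (SD) at 48 hours and 4.69 ± 3.36 CPM at 4 weeks. The SD at 48 hours exceeded the mean, so the size of the fall on BAR is uncertain. SWEET15 (DVH24_041082) differed by -7.62 ± 1.32 (adjusted p = 0.0022) and asparagine synthetase (DVH24_038453) by -3.57 ± 0.76 (adjusted p = 0.0064). Type-A response regulators had a median of -3.41 on BAR, and 2 of the 9 had a higher and 2 a lower difference. These are changes over time, not levels. On the common scale ARR6 (DVH24_008781) was at 75.5 CPM on BAR and 32.2 CPM in the control at 48 hours. At 4 weeks it was at 9.33 and 0.556 CPM. For the ARR3 gene DVH24_040788 these means were 65.1, 26.2, 6.21 and 1.30 CPM. The ARR3 gene DVH24_007079 was at 6.34 CPM on BAR and 5.22 ± 2.27 CPM (SD) in the control at 4 weeks. Differences in level were not tested. Plastid-encoded genes had a lower difference in 9 of 28. For TDZ the interaction called 0 of 25522 genes (0% in either direction, 5642 at an unadjusted p under 0.05, and 2684 by DESeq2). The interaction also called 0 without any 1 TDZ library other than TDZ, 4 week, replicate 3. Earlier work on these data had found that library far from its group. With it left out the interaction called 3454 higher (13.2% of 26195) and 2383 lower (9.1%). Of meristem and organ growth regulators 62 of 98 had a higher difference in that fit, and of type-A regulators 7 of 10. Without control, 4 week, replicate 1 the TDZ interaction called 1443 in all.

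**Figure D5:**
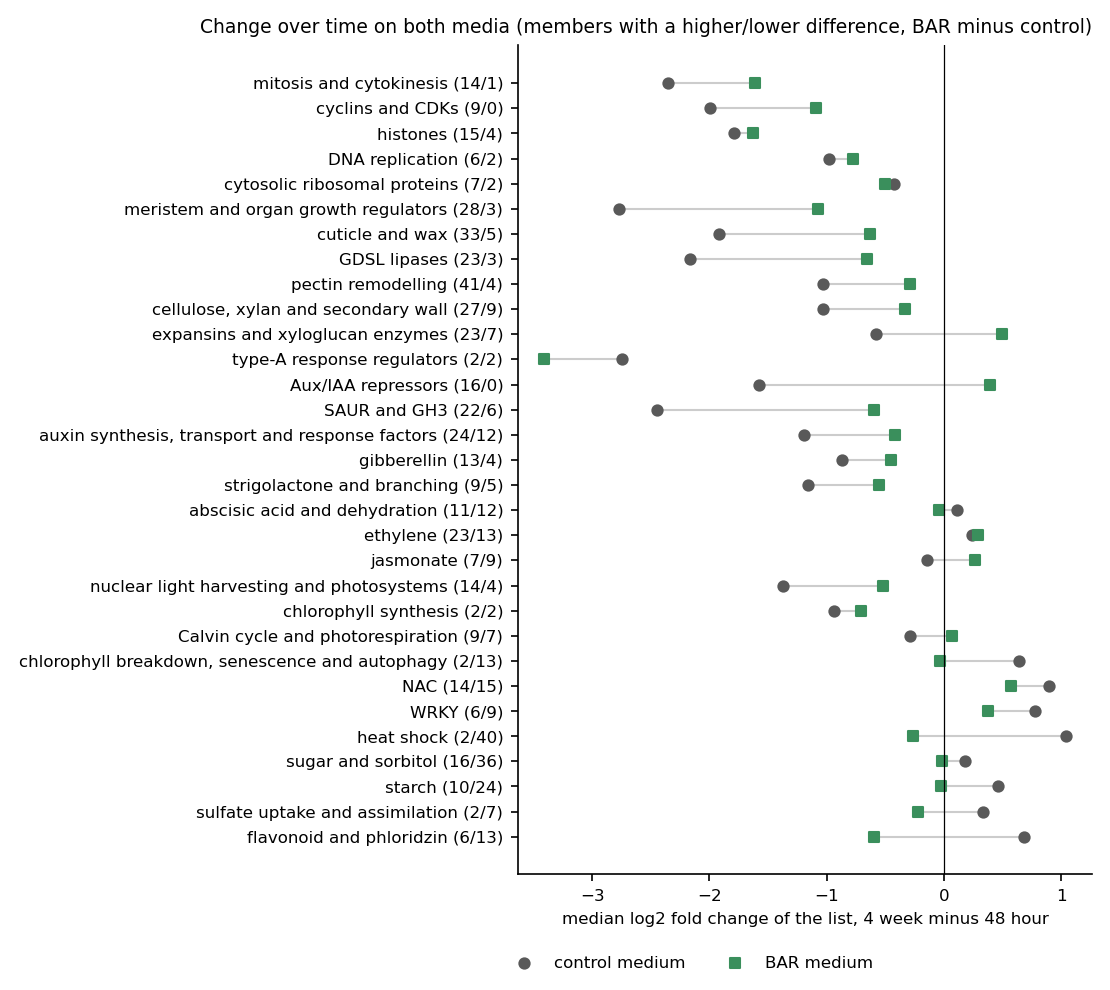
Median log2 fold change of each gene list from 48 hours to 4 weeks on control medium (grey circles) and on BAR (green squares), each from its own 6 libraries, with the number of members that had a higher and a lower difference (BAR minus control) in brackets. The squares lie to the right of the circles for meristem, cuticle, GDSL, Aux/IAA and SAUR lists. They lie to the left for heat shock and for the list of chlorophyll breakdown, senescence and autophagy.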

How the data were processed

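RNA of apple shoot explants was sequenced from poly(A) libraries, and the authors deposited whole-number fragment counts per gene for 18 libraries and FPKM values made from them. Per the submitters' processing notes, reads were handled with CASAVA, HISAT2 2.0.5 and featureCounts 1.5.0-p3. No label states the strand setting, genome build or annotation (not given in the sources used here). Antisense and overlapping genes may therefore share counts, as may near-identical copies. The authors deposited a Swiss-Prot match beside 27453 of 42841 genes, and names taken from it stand for a family rather than an ortholog. The identifiers matched no entry of the RefSeq table at hand, so no coordinates or sequences are given.

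Groups came from the sample labels: control, 48 hour and control, 4 week, with 3 libraries each. The main test was edgeR 4.0.16 in R 4.3.3 on the deposited counts, with trimmed-mean (TMM) scaling, edgeR's filter on low counts (a minimum count of 10 and total of 15), the quasi-likelihood F test and a Benjamini-Hochberg adjusted p under 0.05 over all genes tested, with no fold threshold. Standard errors are the log2 fold change divided by the square root of F. CPM values are TMM-scaled, and levels per length are means of the deposited FPKM. A fold against a group with no count is given against 3 counts over that group and covers counting error only. Totals of 14646040 to 21279097 fragments set the precision of low genes. Interactions of medium and time used 12 libraries each in the same test. The procedure was tested on simulated counts.

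The 54 gene lists are patterns on protein names, with 291 names dropped by reading. The members and lists were chosen with earlier results of these data known. Genes are named by rule: the 10 highest and 10 lowest folds among called genes with at least 10 CPM, the 6 largest rises and falls in CPM, for each list the 4 genes of smallest p and the most abundant, all type-A response regulators and cytokinin oxidases, and the 5 smallest p of each interaction. Alternatives were RLE scaling, library totals alone (chosen after the data were seen), no filter, DESeq2 1.42.0, limma-voom and limma 3.58.1 on log2(FPKM + 1), a 2-fold threshold, more libraries in the fit, the libraries with a shared name summed, a replicate block and leaving out each library.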

Additional observations from a re-analysis of the deposited data

Results flagged for a closer look

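The change over time differed between media for 5608 genes in the test of the interaction of BAR against control, and for 5837 genes in that of TDZ against control without TDZ, 4 week, replicate 3. The genes of smallest p in the BAR test were flagged because their change between 48 hours and 4 weeks was not the same on both media. Pectate lyase 5 (DVH24_033738) differed by 10.34 on the log2 scale (a fitted value, since the control held no count at 4 weeks), and a 36.4 kDa proline-rich protein (DVH24_027926) by 8.39. Oxysterol-binding protein-related protein 4C (DVH24_018870) differed by 6.79 and cinnamyl alcohol dehydrogenase 6 (DVH24_020088) by 6.63. These 4 fell further in the control than on BAR. An esterase (DVH24_042771) differed by -5.69: in the control it went from 4.12, 3.6 and 2.37 CPM to 373, 278 and 324 CPM, and its change on BAR was 0.87 on the log2 scale. What sets these genes apart was not tested.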

How the results depend on the processing

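Across alternatives the numbers of genes higher and lower at 4 weeks were 3840 and 4826 with RLE scaling, 3916 and 4815 without a filter, 4463 and 5541 with DESeq2, 3848 and 5190 with limma-voom, and 4126 and 5210 with limma on log2 FPKM. A fit of all 18 libraries gave 4083 and 5469, 17 libraries 4901 and 6177, and the namesake libraries summed 2664 and 3733. A 2-fold threshold left 1319 and 2474. Leaving out 1 library gave 2317 to 5960 higher and 3060 to 7411 lower. For BAR, all 18 libraries gave 2968 genes, and leaving out 1 library 3735 to 8748. For TDZ, DESeq2 gave 2684, all 18 libraries 1975, and leaving out 1 library 0 to 5837.

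The labels number the replicates alike at both times, but same-numbered libraries did not deviate together (correlations of -0.065, -0.016 and -0.027), so the numbers were not taken to pair them. With a replicate block the counts were 3008 and 4111 for the control, 4465 for BAR and 0 for TDZ.

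Of 255 called genes named by the rule 223 passed the threshold in each of the 17 alternatives, and 0 changed sign. Signs turned only among genes that had not been called. With library totals alone DVH24_002693 was at -0.049, DVH24_011491 at -0.044 and DVH24_037775 at -0.044. DVH24_002693 (ATG18a) was also at -0.098 with limma-voom, -0.061 with limma on FPKM and -0.097 with the replicate block. Over the fits that leave out 1 library, DVH24_026308 ranged from -0.60 to 0.10, DVH24_026296 from -0.0092 to 0.30, DVH24_002693 from -0.69 to 0.43, DVH24_011491 from -0.051 to 0.32, DVH24_000824 (XTH2) from -1.06 to 1.70, DVH24_007939 from -0.32 to 0.93, DVH24_041871 from -0.26 to 0.060, DVH24_041350 from -0.79 to 0.15 and DVH24_013325 from -0.22 to 0.015. Of these, DVH24_002693, DVH24_000824, DVH24_026308 and DVH24_041350 were called lower by edgeR without control, 4 week, replicate 1 (adjusted p = 0.0178, 0.000658, 0.0208 and 0.00295). The cause was not tested. Genes near the filter have few counts, and at that depth a change may go undetected.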

Other observations

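Gene groups outside the account above were divided. Purple acid phosphatases, which free phosphate from organic stores, led a phosphate list with 19 genes higher and 12 lower of 72 (26 and 21 of 77 without control, 4 week, replicate 1, and 10 to 15 higher without 1 of the other 5 libraries). Purple acid phosphatase 18 (DVH24_004166) was at 17.8, 21.8 and 19.2 CPM at 48 hours and at 59.1, 62.7 and 59.9 CPM at 4 weeks (1.63 ± 0.17, adjusted p = 0.0007 by edgeR). Glutathione transferases and antioxidants held 18 higher and 9 lower of 84 (21 and 25 without that library, and 11 to 17 higher without 1 of the others), and glutathione S-transferase L3 (DVH24_004551) changed by 2.86 ± 0.2 (adjusted p = 0.00022 by edgeR). Genes of fermentation and low oxygen fell in 5 of 21 cases and rose in 0 by edgeR, a share of 23.8% against 19.8% of all genes, with 9 lower and 1 higher at an unadjusted p under 0.05, 7 and 0 by DESeq2, and 9 lower and 1 higher of 22 without control, 4 week, replicate 1. Alcohol dehydrogenase (DVH24_009460) was at 4.59, 3.66 and 5.73 CPM and then at 0.251, 0 and 0 CPM (-5.54 ± 0.99, adjusted p = 0.0046 by edgeR).

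Counts for clock and light genes were near or under those of all genes, with 20 of 88 lower (22.7%, against 19.8%) and 10 higher (11.4%, against 16.9%). Without control, 4 week, replicate 1 they were 41 and 19 of 88, and without 1 of the other 5 libraries 12 to 14 were lower. Phototropin-1 (DVH24_006026), a blue light receptor, was at 389, 286 and 283 CPM and then at 130.1, 86.2 and 82.4 CPM (-1.68 ± 0.26, adjusted p = 0.0028 by edgeR). Genes of flowering and phase change had shares under these in both directions, with 14 of 86 lower (16.3%) and 8 higher (9.3%), and with 24 and 12 of 93 without that library. A gene named TERMINAL FLOWER 1 (DVH24_034950), after a repressor of flowering, was at 3.4, 11.5 and 6.97 CPM at 48 hours and had no count at 4 weeks, at least 125-fold lower against 3 counts over the group (adjusted p = 0.002 by edgeR). Terpene genes were called 5 higher and 5 lower of 46, and 6 and 20 of 51 without replicate 1. Inhibitors of cyclin-dependent kinases had 2 higher and 2 lower of 13 (3 and 5 of 14 without that library), and photoprotection genes 1 and 1 of 9 (4 and 3 of 11).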
